A study of Sus scrofa with 6 samples.

Results

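AGPAT4 encodes an acyltransferase of glycerolipid synthesis, and in the deposited table of differentially methylated regions (DMRs) between Landrace and Rongchang backfat it held 10 of the 14163 DMRs. Its members are all DMRs, in any gene element, whose pig transcript carries AGPAT4 as its human homologue. These regions were thus selected on their read depths, since a region entered the table only if LBF and RBF differed in it. They are described with the 21 further DMRs that lie within 500 kb of them. The samples were backfat of 3 female Landrace pigs (LBF), a lean breed, and 3 female Rongchang pigs (RBF), a fatty breed of Chinese origin. The labels name no treatment or engineered allele, and the breeds shared their housing and their age at slaughter, 210 days. Each library came from a separate pig. Breed is the only contrast, so that genotype and methylation differ together between the groups. Backfat is a mixed tissue, and the share of each cell type in it and the methylation per cell cannot be told apart. The table holds no expression values, so the tissue label was not checked against marker transcripts.

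Methylated DNA immunoprecipitation sequencing (MeDIP-seq) enriches fragments with an antibody against methylated cytosine. The read depth over CpGs therefore rises with their methylation, and it also rises with the number of CpGs nearby. The values here are the normalized read depth of each library, averaged over the CpGs of a DMR. The table lists only regions that had already been called on these 6 pigs as different between the breeds. Differences between LBF and RBF are therefore given as a description, with their spread and without a p-value, and none of them is independent evidence. A log2 fold change (log2FC) is the LBF mean minus the RBF mean of log2(depth + 1), given with the standard error (SE) of a limma fit over all DMRs.

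Glycerolipid synthesis starts from glycerol 3-phosphate, to which a first acyltransferase adds a fatty acid to give lysophosphatidic acid. The AGPAT enzymes add the next fatty acid and make phosphatidic acid, from which cells form both triglyceride, the stored fat of adipocytes, and membrane phospholipids. AGPAT2 is the family member best known in adipose tissue, because its loss causes lipodystrophy in humans. AGPAT4 is less studied, and in mice it has been tied to phospholipids of the brain. Methylation within introns has no single known effect on a gene, and it can mark enhancers, alternative start sites or transcribed gene bodies.

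All 10 AGPAT4 DMRs lay in introns of a single annotated transcript (ENSSSCT00000004461) on chromosome 1 of Sscrofa10.2, between positions 8337309 and 8431568. Of these, 8 were in internal introns and 2 in the first intron, and promoters, exons and the downstream region held 0 DMRs of this gene. The first-intron DMRs had the highest coordinates, so the transcript runs towards lower coordinates in this assembly. In order of position the regions are called R1 to R10. Together they covered 2176 bp and 106 CpGs of a stretch of 94.3 kb, or 2.31% of its length. The gap from a region to the next had a median of 9852 bp (406 to 24377 bp), against 65301 bp between neighboring DMRs over all autosomes. Regions R4 and R5 were the closest pair. A stretch of the same length that starts at an autosomal DMR held a median of 2 DMRs. Of the 12866 such stretches, which overlap and include AGPAT4 itself, 0.964% held at least as many as AGPAT4. The gene was chosen for its DMRs, and the length was cut to them. These gaps and counts are therefore descriptions and no test of clustering.

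In all 10 DMRs the mean depth was higher in LBF, as it was in 84.8% of all DMRs, and R7 alone turned to RBF when the libraries were given equal medians. In each of the 10 the lowest LBF library was above the highest RBF library. Breeds were apart in this way in 100% of the table, which follows from how it was made. Averaged over the 106 CpGs of the 10 DMRs, the depth was 34.9, 37.4 and 42.7 in the LBF pigs and 10.6, 9.92 and 5.39 in the RBF pigs. The other CpGs of the gene are not in these averages. The breed means of this depth were 38.3 ± 4.0 and 8.63 ± 2.82 (SD, n = 3 pigs each), a ratio of 4.44, or 1.63 with equal library medians. R1, with 28 of the 106 CpGs and a ratio of 12.4, has the most weight in them. Over the DMRs higher in LBF, the library medians averaged 39.2 in LBF and 10.4 in RBF, without weighting by CpGs. The median log2 fold change of the 10 DMRs was 2.12, against 1.64 over all DMRs and 1.76 over the 3474 intron DMRs of other genes that were higher in LBF. The median SE was 0.39 for AGPAT4 and 0.30 for all DMRs.

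**Figure D1:**
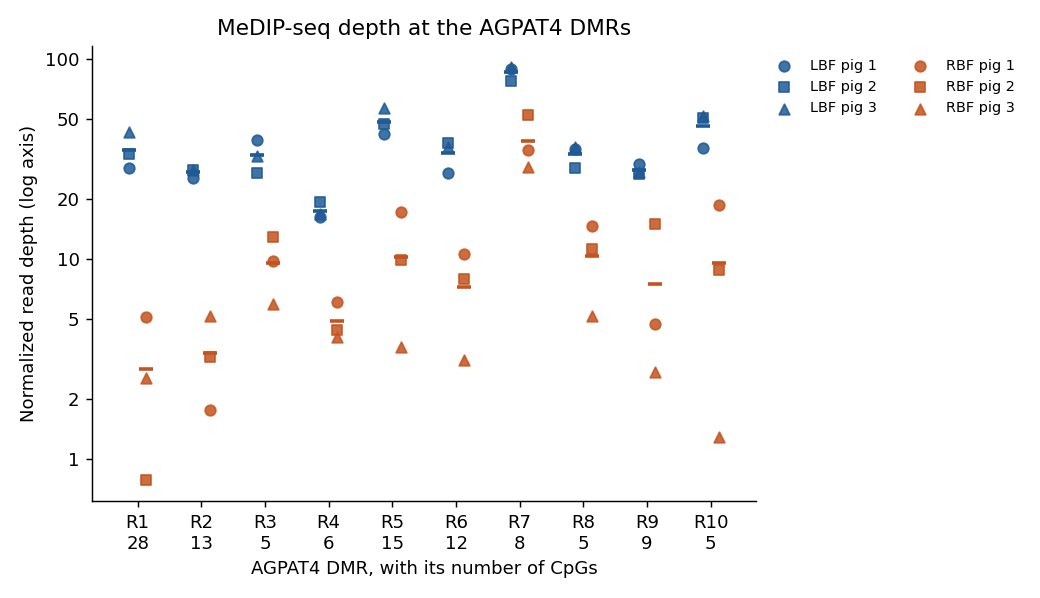
Normalized read depth (log axis) at the AGPAT4 DMRs in order of position, with the number of CpGs under each name. Points are single pigs (blue LBF, orange RBF), and bars are means of 3 pigs. On the log axis the LBF pigs lie close together, whereas RBF pig 3 is the lowest of the RBF pigs in 8 of the 10 DMRs.

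Region R1 (8337309 to 8337781, internal intron) was the longest, at 473 bp, and held the most CpGs, 28. Its depth was 28.3, 33.3 and 43.1 in the LBF pigs and 5.11, 0.781 and 2.54 in the RBF pigs. Every LBF pig was thus far above every RBF pig, and the log2 fold change of 3.39 (SE 0.46) was the largest of the gene, higher than 95.1% of all DMRs. With log2(depth + 5) in place of log2(depth + 1) it was 2.37, still the largest of the gene. Region R2 (8352125 to 8352409, 13 CpGs) had 25.2, 27.9 and 27.9 in LBF and 1.76, 3.24 and 5.16 in RBF. The LBF pigs differed little here, and RBF pig 3 was the highest of its breed, which happened in this DMR only. The log2 fold change of R2 was 2.75 (SE 0.32).

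Regions R3 to R6 lie within a short stretch of internal intron and spanned a narrower range of folds. Region R3 (8357340 to 8357420, 5 CpGs) had 39.0, 26.8 and 32.7 in LBF and 9.75, 12.8 and 5.94 in RBF (log2FC 1.73, SE 0.31). Region R4 (8360396 to 8360619, 6 CpGs) had the lowest depth of the gene in LBF, at 16.3, 19.1 and 16.8, against 6.09, 4.43 and 4.09 in RBF. It had the smallest RBF spread and the smallest SE of the gene (log2 fold change 1.66, SE 0.21). Only 406 bp further, R5 (8361026 to 8361425, 15 CpGs) reached 41.9, 47.2 and 56.4 in LBF and 17.1, 9.89 and 3.61 in RBF. The mean of LBF was thus 48.5 ± 7.34 in R5 and 17.4 ± 1.52 in R4, and the log2 fold change of R5 was 2.34 (SE 0.49). Region R6 (8367749 to 8367919, 12 CpGs) had 26.7, 37.9 and 36.1 in LBF and 10.5, 7.94 and 3.12 in RBF (log2FC 2.19, SE 0.41).

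Region R7 (8383781 to 8383995, 8 CpGs) was the most covered DMR of the gene in both breeds. Its depth was 89.1, 77.7 and 91.2 in the LBF pigs and 34.8, 52.3 and 28.9 in the RBF pigs. It had the smallest fold, a mean ratio of 2.22 and a log2 fold change of 1.17 (SE 0.27), which was below the median of all DMRs. Region R8 (8393848 to 8393949, 5 CpGs) was the only member in a CpG island shore, the flank of a CpG-dense island. It had 35.2, 28.4 and 36.3 in LBF and 14.6, 11.2 and 5.16 in RBF (log2FC 1.69, SE 0.37). No AGPAT4 DMR lay in a CpG island itself. Among the 4140 intron DMRs of other genes, 5.53% lay in a shore and 0.556% in an island.

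The first intron held the last 2 regions. Region R9 (8406967 to 8407139, 9 CpGs) had 29.9, 26.5 and 27.2 in LBF and 4.74, 14.9 and 2.72 in RBF. RBF pig 2 was well above the other RBF pigs in R9 but still below every LBF pig, and the log2 fold change was 2.04 (SE 0.52). Region R10 (8431517 to 8431568, 5 CpGs) was the shortest, at 52 bp, and the densest, at 9.62 CpGs per 100 bp. Its depth was 35.7, 50.3 and 52.0 in the LBF pigs and 18.6, 8.75 and 1.29 in the RBF pigs. It had the widest spread of the gene in RBF on the log2 scale and the largest SE (log2 fold change 2.61, SE 0.75). The first-intron DMRs thus lay inside the range of the internal ones, whose log2 fold changes ran from 1.17 to 3.39.

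The depth behind the RBF values was low. Within each library, the depth multiplied by the CpG number came in whole steps of 1 size for 100% of all DMRs (tolerance 0.01), so that the reads counted at the CpGs can be read back. Summed over the 106 CpGs of the AGPAT4 DMRs, they were 3149, 3071 and 3817 in the LBF pigs and 736, 673 and 443 in the RBF pigs. This is 29.7, 29.0 and 36.0 reads per CpG in LBF and 6.94, 6.35 and 4.18 in RBF. A read spans several CpGs, so these sums exceed the number of fragments and give no counting interval. In R1, RBF pig 2 had 14 such reads over 28 CpGs, an average of 0.5 per CpG. In R10, RBF pig 3 had 5 over 5 CpGs, an average of 1 per CpG. These values thus rest on very few RBF fragments, whereas the LBF pigs had at least 13.8 reads per CpG in every DMR of the gene.

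On the log2 scale, pigs of the same breed differed more in RBF than in LBF at the AGPAT4 DMRs. The SD of log2(depth + 1) over 3 pigs was larger in RBF for 10 of 10 AGPAT4 DMRs, and for 93.0% of the 12016 DMRs higher in LBF. Its median was 0.20 in LBF and 0.73 in RBF for AGPAT4, against 0.16 and 0.56 for those DMRs. RBF pig 3 was the lowest of its breed in 8 of the 10 DMRs, and in 59.4% of the DMRs higher in LBF. Without RBF pig 3, the median RBF SD of AGPAT4 was 0.42, the median SE 0.23 and the median log2 fold change 1.67. Within LBF, pig 3 was the highest in 6 DMRs and the lowest in 0, and pig 1 was the lowest in 6. Over the DMRs higher in LBF, pig 3 was the highest in 36.0% and pig 1 the lowest in 38.6%. The median depth over all DMRs was 34.1, 35.2 and 35.4 in the LBF pigs and 13.9, 14.4 and 9.40 in the RBF pigs. RBF pig 3 was thus also the lowest library of the table by this median. Its reads counted at CpGs, summed over all DMRs, were nearer to those of its breed (1523266, 1544023 and 1507438 in RBF pigs 1 to 3). The part of library depth and of its scaling in the order of the pigs was not tested.

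The scaling of the libraries sets the size of these folds. Scaling all libraries to 1 common median over the DMRs (equal library medians) changed them. The median log2 fold change of all DMRs moved by -1.41, from 1.64 to 0.24, and that of AGPAT4 moved from 2.12 to 0.76. The AGPAT4 median thus stood 0.47 above that of all DMRs before and 0.53 above it after. All DMRs include those higher in RBF, which AGPAT4 has none of by mean depth, so part of these gaps is direction alone. Over the DMRs higher in LBF the median before the scaling was 1.82. Under this scaling 9 of the 10 regions stayed higher in LBF, where 59.8% of all DMRs did, and R7 turned to -0.30. R1 kept the largest log2 fold change, 2.15, followed by R2 (1.45) and R10 (1.31). The zero of that setting is the middle of a list of called regions, so part of the shift is fixed by construction, and the true zero is not known from this table.

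The CpG content of the regions was set beside that of other intron DMRs. The density of CpGs was 5.05 per 100 bp at the median (2.68 to 9.62), against 5.21 in the intron DMRs of other genes. The median length was 194 bp against 146 bp, and the median number of CpGs 8.5 against 7. Within AGPAT4, 3 DMRs had 5 CpGs, the fewest that the calling allowed, as did 25.2% of all DMRs. Over the 10 regions the log2 fold change had a Spearman correlation of 0.58 with the number of CpGs, 0.08 with the mean LBF depth and -0.56 with the mean RBF depth. Over the 12016 DMRs higher in LBF these values were 0.27, -0.16 and -0.69. The regions share their 6 libraries, and the fold contains both depths, so that these are descriptions of this table.

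DMRs of both directions lay close to the gene. Of the 21 DMRs within 500 kb, 13 had the higher depth in LBF (61.9%) and 8 in RBF, with a median log2 fold change of 1.12. With equal library medians, 8 of the 21 were higher and 13 lower. Of these 21, 4 had a larger log2 fold change than the AGPAT4 median. The outermost DMRs inside the window lay 490.4 and 490.04 kb away and had log2 fold changes of -2.76 and 1.83. On the side of the first intron, the nearest outside it was an intron DMR of SLC22A2, an organic cation transporter, at 552.7 kb (2.75).

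On the side of R1, towards the end of the transcript, the nearest DMRs continued the direction of AGPAT4. An intergenic DMR in a CpG island shore 10.6 kb away had 64.1, 74.8 and 71.2 in LBF and 6.09, 33.2 and 11.4 in RBF (log2FC 2.29, SE 0.55). Another, 11.5 kb away with 16 CpGs, had 45.2, 37.1 and 42.0 in LBF and 0.381, 11.7 and 2.98 in RBF (3.36, SE 0.75). In both, RBF pig 2 was the highest of its breed, unlike in R1, where it was the lowest. MAP3K4, a kinase that activates the p38 and JNK pathways, followed with a DMR in its last intron at 35.7, 27.7 and 38.3 in LBF and 0, 6.25 and 0 in RBF. That DMR had the largest log2 fold change of the neighborhood, 4.16 (SE 0.78). The DMR at the CpG-rich promoter and first exon of MAP3K4, within a CpG island 25.5 kb away, had 136 ± 7.36 in LBF and 59.8 ± 26.0 in RBF (log2FC 1.29, and -0.19 with equal library medians).

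Beyond the MAP3K4 promoter DMRs of both directions followed. Of the 11 in the window there, 6 were higher and 5 lower in LBF, and 4 were higher with equal library medians. The nearest DMR lower in LBF lay 27.9 kb from AGPAT4, in a CpG island shore, at 106, 95.4 and 93.2 in LBF and 153, 170 and 192 in RBF (log2FC -0.80, SE 0.19). Here RBF pig 3 was the highest of all 6 libraries, the reverse of its place in most AGPAT4 DMRs. An intergenic DMR at 56.6 kb followed with -1.90, whereas 3 intergenic DMRs at 298.1, 310.6 and 350.5 kb were higher in LBF (1.69, 1.78 and 1.61).

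On the side of the first intron the DMRs were sparser, with 6 in the window, 3 higher and 3 lower in LBF. The nearest, 74.4 kb from R10, lay in an intron of a second MAP3K4 transcript, at 62.2, 65.6 and 61.2 in LBF and 30.1, 29.7 and 17.1 in RBF (log2FC 1.31, and -0.15 with equal library medians). An intergenic DMR at 111.5 kb had 0.38, and -1.09 with equal library medians. The nearest DMR lower in LBF on this side was 305.6 kb away (-1.72), and an intron of PLG, which encodes plasminogen, had 14.4 ± 7.28 in LBF and 46.4 ± 5.64 in RBF (-1.76). From the MAP3K4 promoter to the intergenic DMR at 111.5 kb, the table listed 16 DMRs in a row that were higher in LBF by mean depth, the 10 of AGPAT4 among them, over 232.1 kb. With equal library medians 4 of the 16 turned to RBF, among them those at both ends, so the run did not hold in that setting. Of the 1714 runs in the table by mean depth, 10.3% were at least as long.

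**Figure D2:**
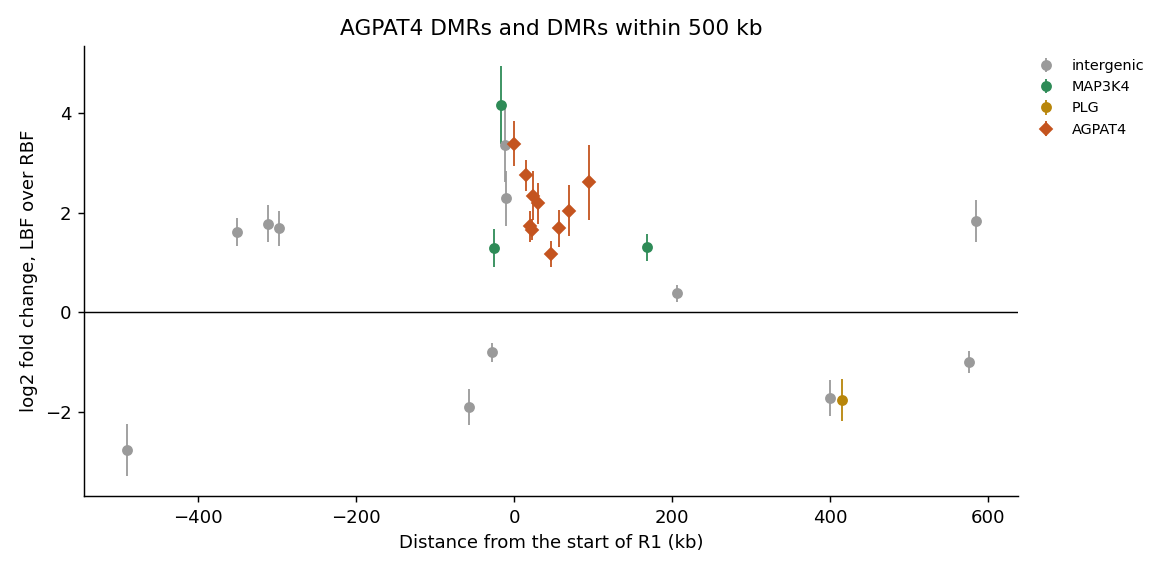
Log2 fold change (LBF over RBF, with the limma SE as bars) of the AGPAT4 DMRs (diamonds) and of 16 of the 21 DMRs within 500 kb, by distance in kb from the start of R1. The 10 AGPAT4 DMRs lie between 1.17 and 3.39 (R7 is at -0.30 with equal library medians), with DMRs of MAP3K4 on both sides and DMRs of both directions beyond 27.9 kb on the side of R1.

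The table thus placed MAP3K4 transcripts on both sides of AGPAT4. In the RefSeq annotation of Sscrofa11.1, AGPAT4, MAP3K4 and PLG follow each other in this order, and MAP3K4 stands on a single side. The distances, the order and the gene elements of the neighbors given here, such as the last intron of MAP3K4, are those of Sscrofa10.2. The part of the assembly in them was not tested.

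Among 2686 human symbols in the table, 1805 had a single DMR, and AGPAT4 was among the 14 with at least 10. ARHGAP26 held the most, 21. Of the 14 genes, 6 had all their DMRs higher in LBF: ATRX, IL1RAPL2 and DIAPH2 on the X chromosome, and KIT, RTN3 and AGPAT4 on autosomes. With equal library medians this held for KIT alone, with 12 of 12, whereas AGPAT4 had 9 of 10. Over the 111 genes with at least 5 DMRs, 41.4% had all of them higher in LBF. By its median log2 fold change AGPAT4 stood at place 5 of the 14, whose highest median was 3.13 (DIAPH2). KIT, the stem cell factor receptor, was almost level with it at 2.11. AGPAT4 was also the 3rd most compact of the 14, after KIT at 48.7 kb and RTN3 at 52.5 kb. AGPAT4 was itself chosen for its DMRs, so its place in this list is a description. The number of DMRs of a gene also depends on its length and its CpGs, which were not analysed here.

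**Figure D3:**
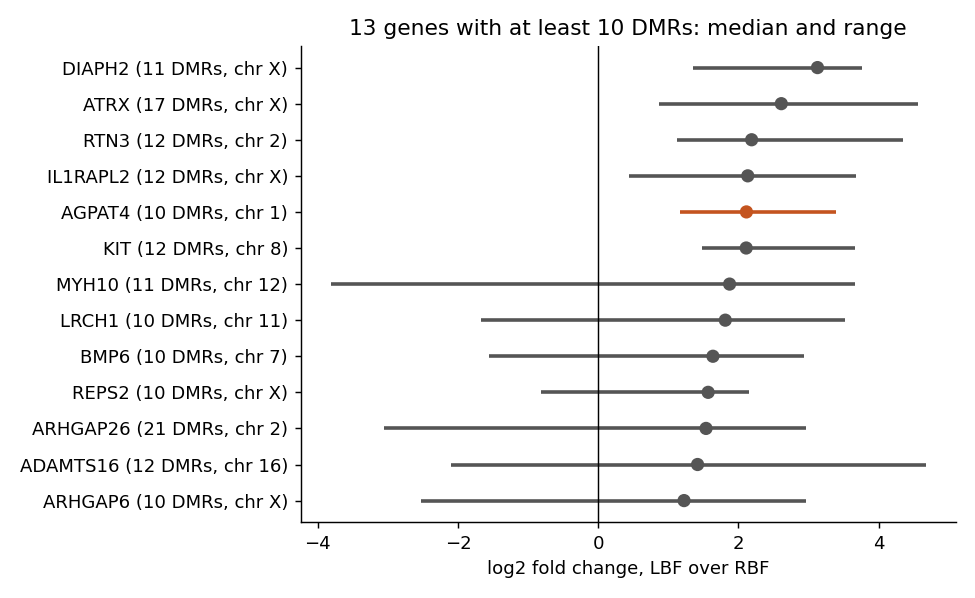
Median (point) and range (line) of the log2 fold change, LBF over RBF, for 13 of the 14 genes with at least 10 DMRs, ordered by the median, with AGPAT4 in orange. AGPAT4 (median 2.12, range 1.17 to 3.39) is 1 of the 6 genes whose range stays above 0, although with equal library medians only KIT's does.

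The genes most like AGPAT4 in their levels were sought among the other 110 genes with at least 5 DMRs. Likeness was the mean absolute difference, over the 6 libraries, of the median log2(depth + 1) of their DMRs. The closest were CASP10, a caspase of cell death (0.16), C11orf49 (0.18), MGMT, which repairs alkylated guanine in DNA (0.19), DLG5, a scaffold of cell junctions (0.19), and MACROD1, an enzyme that removes ADP-ribose (0.20). The median difference over all 110 was 0.58. These genes lie on chromosomes 15, 2, 14, 14 and 2 and had 5 or 6 DMRs each, all higher in LBF by mean depth. Like AGPAT4 they had their lowest level in RBF pig 3. They were picked for their closeness to AGPAT4 in these same 6 levels, so the shared order of the levels follows largely from that choice. At AGPAT4 these levels were 5.06, 4.99 and 5.22 in LBF and 3.48, 3.37 and 2.28 in RBF. At CASP10 they were 4.83, 5.11 and 4.99 in LBF and 3.62, 3.34 and 2.51 in RBF.

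Other acyltransferases of the same kind of reaction had DMRs in both directions. Of 21 other symbols on the list of glycerolipid and lysophospholipid acyltransferases, 4 had any DMR. Older and newer names are both on the list, so a gene can count more than once. Only genes with a DMR were listed by the authors, so the share of all genes with a DMR is not known here. The count of 4 is therefore not read as few or many. Of the 6 DMRs of these genes, 3 were higher and 3 lower in LBF, where 84.8% of all DMRs were higher. AGPAT1, AGPAT2, AGPAT3 and AGPAT5, the other members that acylate or are related to those that acylate lysophosphatidic acid, were among the symbols without a listed DMR. The 6 DMRs had a median log2 fold change of 0.39, and -1.02 with equal library medians, where the split was again 3 and 3.

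LPGAT1, which acylates lysophosphatidylglycerol, held 3 of these DMRs. Its CpG-rich promoter on chromosome 9 had 40.8, 45.7 and 36.5 in LBF and 0.218, 4.13 and 2.21 in RBF (log2FC 3.94, SE 0.52). An internal intron of LPGAT1 had 13.8 ± 5.50 in LBF and 67.4 ± 15.9 in RBF (-2.27), so that the gene held both directions, unlike AGPAT4. LCLAT1, which remodels cardiolipin and is an AGPAT family member, had a DMR in its last intron at 81.7, 92.2 and 105 in LBF and 31.6, 28.7 and 22.1 in RBF (1.73). AGPAT6, now named GPAT4, makes the lysophosphatidic acid that AGPAT enzymes use. Its promoter was at 4.90, 7.09 and 6.13 in LBF and 13.2, 12.0 and 12.5 in RBF (log2FC -0.96, SE 0.20), at low depth in both breeds. An intron of MBOAT1, a lysophospholipid acyltransferase, was also lower in LBF, at 25.2 ± 5.45 and 67.1 ± 4.36 (-1.40).

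Of 42 symbols of other steps, which interconvert phosphatidic acid, diacylglycerol, triglyceride and phospholipids or form or oxidise glycerol 3-phosphate, 9 had a DMR. This count too has no share over all genes beside it. Of their 21 DMRs, 17 had the higher depth in LBF and 4 in RBF, with a median log2 fold change of 1.72, against 84.8% higher and a median of 1.64 over all DMRs. Equal library medians made this 11 and 10, where 59.8% of all DMRs stayed higher. The largest folds were at an intron of CEPT1 (3.64), the enzyme that makes phosphatidylcholine and phosphatidylethanolamine, the first intron of LPIN1 (3.33), the phosphatase that turns phosphatidic acid into diacylglycerol, and an intron of GPD2 (2.54), the mitochondrial enzyme that oxidises glycerol 3-phosphate. The CEPT1 intron had 62.5, 64.7 and 71.0 in LBF and 3.50, 7.97 and 2.84 in RBF. The LPIN1 intron had 53.7, 78.0 and 52.2 in LBF and 7.62, 9.37 and 1.51 in RBF. The smallest were at another intron of CEPT1 (-1.22) and at 2 introns of DGKI (-1.06 and -0.89), a kinase that makes phosphatidic acid from diacylglycerol. LPIN1 and CDS1, which makes CDP-diacylglycerol from phosphatidic acid, each had 3 of 3 DMRs higher in LBF, also with equal library medians, under which AGPAT4 had 9 of 10.

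**Figure D4:**
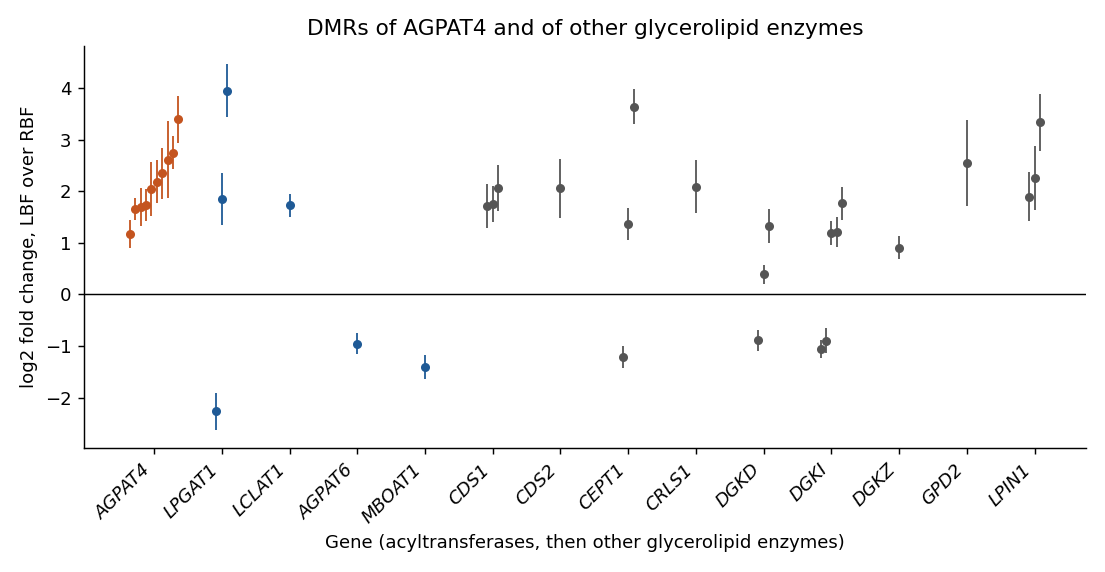
Log2 fold change (LBF over RBF, bars are the limma SE) of each DMR of AGPAT4 (orange), of the other acyltransferases (blue) and of enzymes of other glycerolipid steps (grey). AGPAT4 has 10 DMRs above 0 (9 with equal library medians), whereas LPGAT1, CEPT1, DGKD and DGKI have DMRs on both sides of 0.

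Marker genes of the cell types that backfat can hold were also looked up, against the 84.8% of all DMRs that were higher in LBF. A DMR lay at 1 of 10 adipocyte markers (1 higher in LBF, and also with equal library medians), at 2 of 10 immune markers (3 higher, 0 lower), at 3 of 10 endothelial and stromal markers (3 higher, 1 lower) and at 1 of 10 muscle markers (1 higher, which turned to RBF with equal library medians). The share of all genes with a DMR is not known here, so these counts of markers are not read as few or many. Methylation at these genes is no measure of how many of those cells were present, and the part of cell composition in the AGPAT4 values was not tested.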

How the data were processed

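MeDIP-seq libraries of 3 LBF and 3 RBF pigs were taken from the DMR table that the authors deposited, and every library was assigned by its label. The authors filtered reads on base quality, aligned them by SOAP2 (build Sscrofa10.2 per the submitters' processing notes), and collapsed multi-mapped reads to 1. They removed CpGs below a read depth of 10, and extended CpGs with a breed difference into DMRs. The paper does not say over which libraries that depth was counted. In reads per CpG (6.94, 6.35 and 4.18), the RBF libraries averaged below it over the AGPAT4 DMRs. The deposited signal is the mean read depth (coverage) over the CpGs of a DMR, scaled per library by the authors. Division by the mean read number of each group is described for the chromosome-wide profiles, and no method is given for this table in the sources used here. The deposited p-value and FDR columns hold the authors' own comparison. They were not used, except that an FDR under 0.005 served as a stricter listing in an alternative. Other deposited numbers are positions, lengths and CpG numbers. The table has 15883 annotations of 14163 DMRs, and a DMR was counted once.

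The members and lists were chosen with earlier results of these data known. Limma (version 3.58.1, R 4.3.3) was fitted to log2(depth + 1) of all 14163 DMRs with breed as the only term, for the log2 fold change and its SE. No p-value is given, because the rows were selected on this contrast, and an exact permutation test of 3 against 3 pigs cannot give a two-sided p under 0.1. The fit was tested on simulated data. Python 3.11.15, numpy 2.4.6, pandas 2.3.3, scipy 1.17.1 and matplotlib 3.10.9 were used. The pigs were separate animals. Named were every AGPAT4 DMR, genes with a DMR within 500 kb, list acyltransferases with a DMR, the 3 largest and 3 smallest DMRs of the other glycerolipid enzymes, and the 5 most similar genes. The genes with at least 10 DMRs and individual further DMRs were named after their values were seen. Alternatives were another pseudocount, the ratio of mean depths, equal library medians, a replicate block, each library left out, stricter listings and other windows. No genome of this build was used, so no sequence is shown, and Sscrofa11.1 gene names served only for the order of genes. Some values that this rule covers are not reported here and were left out of the plots, but they enter the counts and medians.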

Additional observations from a re-analysis of the deposited data

How the results depend on the processing

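The count of AGPAT4 DMRs higher in LBF was 10 without each library in turn and 9 with equal library medians. The median log2 fold change was 1.67 to 2.37 when a library was left out, and 1.61 to 2.21 with a pseudocount of 5 or 0.5. It was 0.76 with equal library medians, under which R7 was at -0.30. With a pseudocount of 5 the single DMRs ran from 1.09 to 2.37, against 1.17 to 3.39 in the main fit. The CpG-weighted ratio, an alternative set chosen after seeing the data, was 3.74 to 5.01 when a library was left out, 1.63 with equal library medians and 6.79 over the DMRs with at least 10 CpGs. Of the 10 DMRs, 4 had an FDR under 0.005, 6 a mean depth of at least 20, and 4 at least 10 CpGs. The neighbors numbered 11 within 250 kb, 38 within 1000 kb, and 8 with an FDR under 0.005. The median of the other acyltransferases turned to -1.02 with equal library medians. The cause of these shifts was not tested, beyond what fewer regions or a moved zero fix by construction. A replicate block left the median log2 fold change at 2.12 and gave a median SE of 0.40 against 0.39. The deviations of same-numbered pigs of the breeds correlated at 0.06, -0.01 and 0.06, and those of differently numbered pigs at -0.08 to 0.03. Pigs 1 and pigs 3 thus had the highest values of all pairs, whereas pigs 2 did not stand out. The paper names paired comparisons in its figure legends but does not say how pigs were matched. With 3 pigs per breed, such small correlations cannot tell whether same-numbered pigs were matched.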
